A study of Mus musculus with 8 samples.

Results

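The interferon regulatory factors (IRFs) are transcription factors that share a DNA-binding domain which reads GAAA-rich elements, the interferon-stimulated response elements (ISREs). The 8 IRF genes described here, *Irf1*, *Irf2*, *Irf3*, *Irf4*, *Irf5*, *Irf7*, *Irf8* and *Irf9*, were taken by name from the 23356 genes of an RNA-seq table of mouse bone marrow-derived dendritic cells (BMDCs). All 8 were present, and all 8 were among the 11397 genes that reached at least 1 FPKM in at least 1 group with a valid status. BMDCs are dendritic cells (DCs) grown in culture from bone marrow, here with the cytokines GM-CSF and IL-4. The study asked which transcriptional responses to microtubule destabilization need GEF-H1, a guanine nucleotide exchange factor that is held on microtubules and is encoded by *Arhgef2*.

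Cells of WT mice and of Arhgef2-/- mice (GEF-H1-/- below), both on a C57BL/6 background per the labels (C57BL/6N in the methods), were left untreated (control) or received 100 nM ansamitocin-P3 (AP3), a maytansine-type drug that destabilizes microtubules. RNA was taken at 5 h, and 2 libraries were sequenced per group, 8 in all. The deletion was carried by the mice and so by every cell of the culture, and the cells collected were those floating or loosely attached, with no sort of them described. Whether the 2 libraries of a group came from separate mice is not stated in the sources used here, and ages are given for the study's mice as a whole and not by group. The deposited values are FPKM, fragment counts scaled by transcript length and sequencing depth. Cuffdiff merged both libraries of a group into 1 value per gene and gave it the bounds of a 95% interval. Neither WT column states its genotype, so both were identified by elimination. *Arhgef2*, the deleted gene, was at 42.3 FPKM in control and 45.9 FPKM in AP3-treated WT cells and at 4.59 and 4.16 FPKM in the corresponding GEF-H1-/- cells, the order that the labels call for.

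No value of a single library is part of this table, so no difference below was tested against the spread between duplicates and no p-value is given. Each FPKM is printed with its Cuffdiff bounds in parentheses, and each difference as the log2 ratio of FPKM + 1, written ± the 95% margin that the bounds of the groups give when they are propagated. A gene was called past 2-fold when this log2 ratio was over 1 or under -1, and "rose" and "fell" are used for such genes only. All 8 IRF genes lay inside their own Cuffdiff bounds in every group. The summed FPKM over all genes ran from 599331 to 739523 between groups, and rescaling the groups to their median ratio (factors from 0.995 to 1.004) moved no IRF call.

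IRF proteins fall into groups by how they are used. IRF3 and IRF7 wait in the cytoplasm until kinases downstream of nucleic acid sensors and Toll-like receptors phosphorylate them, after which they switch on type I interferon genes. IRF5 is activated downstream of MyD88 and drives inflammatory cytokine genes. IRF9 is the main DNA-binding subunit of ISGF3, the complex that reads out interferon receptor signaling. IRF1 and IRF2 bind the same elements, IRF1 as an inducible activator and IRF2 as a largely constitutive factor. IRF4 and IRF8 bind weakly alone and act with partners such as PU.1 and BATF, and they are lineage factors of DCs, IRF8 for type 1 conventional and plasmacytoid DCs and for monocytes, IRF4 for type 2 conventional DCs.

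The promoters of *Irf8*, the one member past 2-fold after AP3, and of *Irf4*, the other lineage factor, are printed as the 250 bases before the RefSeq transcription start (GRCm38.p6, plus strand, 5′ to 3′), chromosome 8 from 120736108 to 120736357 for *Irf8* and chromosome 13 from 30748983 to 30749232 for *Irf4*. Capitals mark matches to TTCNNNGAA, the GAS element that STAT dimers bind.
Irf8: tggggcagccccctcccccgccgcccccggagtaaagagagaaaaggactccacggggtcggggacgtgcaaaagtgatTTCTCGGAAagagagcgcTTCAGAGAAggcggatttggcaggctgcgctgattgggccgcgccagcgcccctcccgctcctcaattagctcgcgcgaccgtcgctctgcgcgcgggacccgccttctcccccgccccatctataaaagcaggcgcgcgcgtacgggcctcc
Irf4: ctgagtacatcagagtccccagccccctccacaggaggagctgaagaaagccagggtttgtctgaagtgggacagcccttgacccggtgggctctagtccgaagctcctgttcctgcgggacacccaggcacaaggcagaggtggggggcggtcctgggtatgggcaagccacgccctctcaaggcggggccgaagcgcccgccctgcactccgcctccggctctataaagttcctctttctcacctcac
The *Irf8* promoter held 2 GAS matches, which began 171 and 153 bases before the start and did not overlap each other, while the *Irf4* promoter held none. In windows of the same length, 7.02% of 32851 mouse promoters held at least 1 GAS match. An annotated second start of *Irf8*, at 120738639, had no match to any motif searched. GC content was 67.2% in the *Irf8* window and 63.6% in the *Irf4* window, against a median of 52.4% over all promoters.

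Of the other motifs searched, the ISRE core GAAANNGAA (in 7.13% of all promoters) and the ETS-IRF composite core GGAANNGAA (in 6.99%) were each found once among the members, both in the *Irf2* promoter at 241 and 247 bases before its start, where the 2 matches overlap. *Irf1* had 1 GAS match, 90 bases before its start at 53770014, and none before its second start at 53770473. *Irf2* had 1 GAS match at 224 bases. TGANTCA, the AP-1 element (in 6.75% of all promoters), and GGGANTTTC, a κB element (in 0.94%), were in none of the 11 start windows of the 8 genes. All motifs were read on both strands. A match states only that the letters are there.

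In control WT cells the 8 genes spanned a 15.4-fold range of FPKM, which is a level per length and can be compared between genes. *Irf5* was by far the most abundant at 289 FPKM (229 to 348), followed by *Irf4* at 99.6 (80.7 to 118). These 2 levels were apart from each other and from the rest by their bounds. *Irf2* at 50.5 (40.5 to 60.4) and *Irf1* at 44.5 (35.7 to 53.3) came next, then *Irf7* at 32.9 (26.6 to 39.1). *Irf3* was at 23.0 (18.5 to 27.6), *Irf9* at 21.8 (17.4 to 26.1) and *Irf8* last at 18.8 (15.01 to 22.5). From *Irf2* downward each gene overlapped the next in its bounds, so that part of the order is not resolved. Even the lowest member lay above 62.5% of the tested genes in this group.

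Control GEF-H1-/- cells had nearly the same order, with *Irf5* at 253 FPKM (190 to 317), *Irf4* at 100.2 (81.2 to 119) and *Irf9* last at 20.8 (15.8 to 25.7). *Irf8*, at 24.8 (19.8 to 29.8), was sixth there. After AP3, *Irf8* stood at the third place in both genotypes. In treated WT cells its bounds were apart from those of *Irf4* above and *Irf2* below, and in treated GEF-H1-/- cells they overlapped those of *Irf4*.

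**Figure D1:**
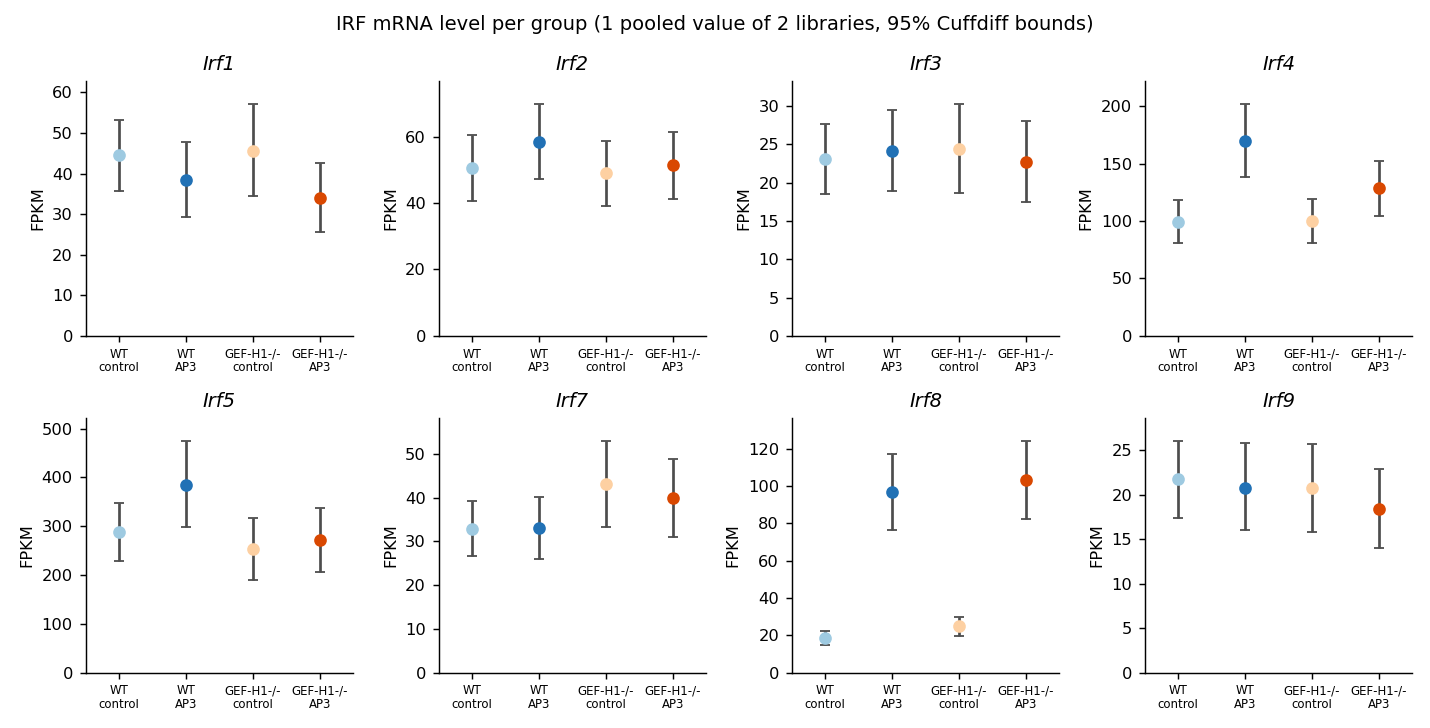
mRNA level in FPKM (vertical axis, from 0, own scale per panel) of the 8 IRF genes in control and AP3-treated WT and GEF-H1-/- cells. Points are the pooled value of 2 libraries and bars its 95% Cuffdiff bounds. *Irf8* goes from 18.8 to 96.8 FPKM in WT cells and, without GEF-H1, from 24.8 to 103 FPKM, while the bars of *Irf3*, *Irf7* and *Irf9* overlap in all 4 groups.

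The genes lie at separate places in the genome (coordinates of the deposited table, mm10). *Irf8* spans chromosome 8 from 120736376 to 120756692, *Irf2* the same chromosome from 46739745 to 46847458, and *Irf4* chromosome 13 from 30749258 to 30766927. *Irf5* is on chromosome 6 (29526625 to 29537320), *Irf1* on chromosome 11 (53770014 to 53778374) and *Irf9* on chromosome 14 (55603985 to 55610030). *Irf3* (44997648 to 45002848) and *Irf7* (141263183 to 141266424) are both on chromosome 7. In GENCODE release M21 all are protein coding, and only *Irf4* overlaps no other annotated gene. *Irf9* shares its strand with *Rnf31* and *Irf8* with the gene model *Gm20388*, and *Irf3*, *Irf5* and *Irf7* overlap *Bcl2l12*, *Tnpo3* and *Phrf1* on the opposite strand, as *Irf1* and *Irf2* overlap gene models there. The libraries were strand specific, but the strand setting behind this table is not given in the sources used here, so reads of such pairs may be shared.

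*Irf8* was the member that rose with AP3, and it rose in both genotypes. In WT cells its mRNA was at 18.8 FPKM (15.01 to 22.5) in control and 96.8 (76.4 to 117) in treated cells. In GEF-H1-/- cells it was at 24.8 (19.8 to 29.8) and 103 (82.4 to 124). Treated cells lay far above control cells with no overlap of bounds, and the treated levels of the genotypes overlapped. The ratio of FPKM was 5.15 in WT and 4.16 in GEF-H1-/- cells, and the log2 ratio of FPKM + 1 was 2.31 ± 0.41 and 2.01 ± 0.40, respectively. This was the 55th largest rise among 11397 genes in WT cells and the 27th largest in GEF-H1-/- cells. *Irf8* was thus 1 of 8 members past 2-fold in WT cells, where 4.94% of all tested genes were past it, and 1 of 8 in GEF-H1-/- cells, where 1.08% were. The difference between these changes was 0.29 ± 0.57 on the log2 scale, an interval from -0.28 to 0.86 that includes 0.

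Some markers of the DC types that need IRF8 were low and others were not. *Xcr1* and *Clec9a*, which mark type 1 conventional DCs, were at most at 0.27 and 0.78 FPKM in any group. Of the plasmacytoid DC markers, *Siglech*, *Ccr9* and *Ly6d* were at most at 0.10, 0.58 and 2.22 FPKM. *Tcf4* of that list was between 4.75 and 5.89 FPKM and *Bst2* between 86.7 and 115 FPKM. The 5 type 1 DC markers summed to 116 FPKM in control and 82.8 in treated WT cells and to 147 and 128 FPKM in GEF-H1-/- cells. Most of each sum was *Batf3*, so it mainly follows that 1 gene. *Cd8a* was at 6.82 and 8.23 FPKM in WT and at 4.41 and 5.22 FPKM in GEF-H1-/- cells. *Itgae* was at 2.76 and 1.56 FPKM in WT and at 1.37 and 1.06 FPKM in GEF-H1-/- cells. The 4 B cell markers, of another lineage that uses IRF8, summed to 16.2 and 9.89 FPKM in WT and to 9.18 and 6.46 FPKM in GEF-H1-/- cells, lower with AP3 in each. The 6 macrophage markers summed to between 249 and 281 FPKM in the 4 groups, although with AP3 *Mertk* fell and *C5ar1* rose past 2-fold in WT cells (-1.86 and 1.32). Of the 6, 4 were lower in value with AP3 and 2 higher in each genotype, with medians of -0.31 in WT and -0.13 in GEF-H1-/- cells. The part of these cells in the rise of *Irf8* was not tested. In bulk RNA a change in the number of cells of a type and a change in RNA per cell cannot be told apart.

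Most like *Irf8* over the 4 groups, by Euclidean distance of centered log2 FPKM + 1 among 8893 genes with at least 5 FPKM in a group, were *Tuba1c* (distance 0.40), *Pdgfb* (0.49), *Ttc39c* (0.50), *Tubb2b* (0.55) and *Tubb2a* (0.60). *Tuba1c*, *Tubb2b* and *Tubb2a* are tubulin genes, and *Pdgfb* encodes a growth factor chain. *Tuba1c* was at 24.9 and 112 FPKM in control and treated WT cells and at 26.3 and 92.3 FPKM in GEF-H1-/- cells, close to the levels of *Irf8* itself. Likeness here rests on 4 pooled values.

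*Irf4* had the next largest change in WT cells. It was at 99.6 FPKM (80.7 to 118) in control WT cells and 170.0 (138 to 202) in treated ones, bounds that do not meet. In GEF-H1-/- cells it was at 100.2 (81.2 to 119) and 129 (104 to 153), bounds that overlap. The control levels of the genotypes were nearly equal, and the treated level of WT cells was the highest of the 4. On the log2 scale these changes were 0.77 ± 0.38 with GEF-H1 and 0.36 ± 0.38 without it, and neither was past 2-fold. The difference between the changes was 0.41 ± 0.54, with an interval from -0.13 to 0.95, so a smaller response without GEF-H1 is not resolved from the Cuffdiff error.

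*Irf5*, the most abundant member, was at 289 FPKM (229 to 348) in control WT cells and 385 (298 to 475) in treated ones. In GEF-H1-/- cells it was at 253 (190 to 317) and 271 (206 to 338). The treated WT level was again the highest, with bounds that overlap those of every other group. With AP3 the log2 value was 0.42 ± 0.44 for WT and 0.10 ± 0.50 for GEF-H1-/- cells, and the difference between these was 0.32 ± 0.67.

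The factors that signal to interferon genes and back from interferon receptors moved little. *Irf3* was at 23.0 FPKM (18.5 to 27.6) in control WT cells and 24.1 (18.9 to 29.4) in treated ones, and at 24.4 (18.6 to 30.2) and 22.7 (17.5 to 28.0) in GEF-H1-/- cells. *Irf7* was at 32.9 (26.6 to 39.1) and 33.0 (26.0 to 40.1) in WT, and at 43.1 (33.2 to 53.0) and 39.9 (31.0 to 48.7) in GEF-H1-/- cells. *Irf9* was at 21.8 (17.4 to 26.1) and 20.8 (16.0 to 25.8) in WT, and at 20.8 (15.8 to 25.7) and 18.4 (14.0 to 22.9) in GEF-H1-/- cells. For each of these 3 genes the bounds of all 4 groups overlapped. Their log2 changes with AP3 ran from -0.06 to 0.06 in WT cells and, without GEF-H1, from -0.17 to -0.10, with margins of 0.40 to 0.46. These are mRNA levels, and phosphorylation or nuclear entry of the proteins is not measured by them.

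*Irf1* and *Irf2* went opposite ways in value. *Irf1* was at 44.5 FPKM (35.7 to 53.3) in control WT cells and 38.4 (29.2 to 47.8) in treated ones, and at 45.7 (34.5 to 57.1) and 34.1 (25.7 to 42.6) in GEF-H1-/- cells. Its log2 change was -0.21 ± 0.44 and -0.41 ± 0.49, the lowest of the family in both genotypes. *Irf2* was at 50.5 (40.5 to 60.4) and 58.5 (47.2 to 69.7) in WT, and at 49.0 (39.2 to 58.5) and 51.4 (41.3 to 61.4) in GEF-H1-/- cells, log2 changes of 0.21 ± 0.39 and 0.07 ± 0.39. All bounds of each gene overlapped.

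**Figure D2:**
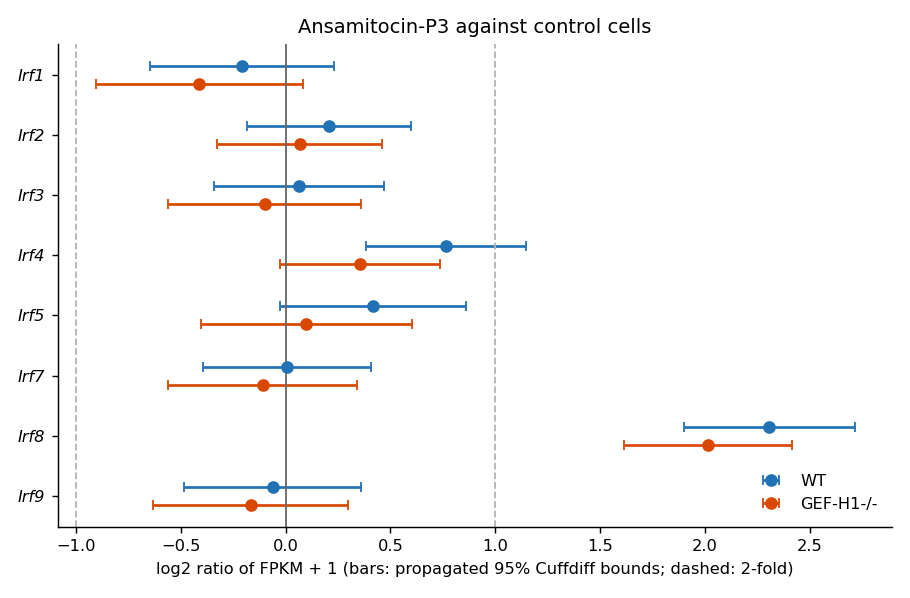
log2 ratio of FPKM + 1 (horizontal axis) of AP3-treated against control cells for the 8 IRF genes, in WT (blue) and GEF-H1-/- (orange) DCs. Bars are the propagated 95% Cuffdiff bounds and dashed lines mark 2-fold. *Irf8* lies past 2-fold in both genotypes, at 2.31 and 2.01, and the *Irf4* bar stays clear of 0 in WT cells only.

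Where a call instead required that the propagated interval exclude 0, *Irf4* and *Irf8* were called in WT cells, 2 of 8 members against 30.1% of all genes, and *Irf8* was called in GEF-H1-/- cells, 1 of 8 against 8.97%. A limit of 1.5-fold gave these same genes, against 17.7% and 3.98% of all genes. The shares of members called are therefore near the background in WT cells by these 2 rules. The median log2 change of the 8 genes was 0.14 in WT and -0.02 in GEF-H1-/- cells, against medians over all genes of 0.001 and -0.009.

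The WT change was above the GEF-H1-/- change for each of the 8 genes, by 0.10 for *Irf9* at the least and 0.41 for *Irf4* at the most, with a median of 0.18. Over all genes the WT change was above in 51.6%. None of the 8 differences was past 2-fold (1.90% of all genes) or past 1.5-fold (8.20%), and none had an interval that excluded 0 (8.29%), the margins running from 0.54 to 0.67.

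In control cells no IRF gene differed between the genotypes past 2-fold (1.88% of all genes), past 1.5-fold (5.26%) or with an interval that excluded 0 (10.0%). The largest values were those of *Irf8* and *Irf7*, both higher in GEF-H1-/- cells. *Irf8* was at 24.8 against 18.8 FPKM, a log2 difference of 0.39 ± 0.39 whose interval from -0.005 to 0.78 just includes 0. *Irf7* was at 43.1 against 32.9 FPKM, 0.38 ± 0.42. *Irf5* was lower in value in GEF-H1-/- cells, by -0.19 ± 0.47, and the other 5 genes differed by between -0.06 and 0.08.

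The control cultures of the genotypes differed in markers of other blood cells. The 4 mast cell and basophil markers summed to 107 FPKM in control WT and 198 in control GEF-H1-/- cells, with *Fcer1a* at 6.25 and 33.5 FPKM. All 4 were higher in GEF-H1-/- cells, also by the interval rule. Of all genes, 47.7% were above 0 in this comparison and 10.0% were called. The 5 neutrophil markers summed to 32375 and 21722 FPKM, 5 of 5 lower in value in GEF-H1-/- cells, with *Camp* at 189 and 14.98 FPKM. By the interval rule 4 of the 5, *S100a8* among them, were lower, beside 10.0% of all genes called. *S100a9*, at 10678 and 10004 FPKM, differed by only -0.09 ± 0.50. None of the 5 neutrophil markers was at 0 in any group. *S100a8* made up most of the WT sum, at 19401 FPKM in control cells. It lay above its own upper Cuffdiff bound in all 4 groups, so its interval is no sound basis for a call. The part of these cells in the levels of *Irf7* and *Irf8* was not tested. DC markers were present in all groups, with *Cd74* from 3073 to 4935, *H2-Ab1* from 506 to 633 and *Itgax* from 102 to 175 FPKM, while *Flt3* was at most at 2.63 FPKM. The 10 DC markers summed to 5804 and 7526 FPKM in control and treated WT cells and to 4940 and 5439 FPKM without GEF-H1. Most of each sum was *Cd74*. By the interval rule 2 of the 10 were higher and 3 lower with AP3 in WT cells, beside 30.1% of all genes called. Without GEF-H1, 2 were higher and 1 lower by this rule, beside 8.97%. The 5 plasmacytoid markers summed to between 93.0 and 124 FPKM, most of it *Bst2*, which is also an interferon-stimulated gene, and the 4 T cell markers to between 8.02 and 13.0 FPKM.

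In treated cells *Irf4* and *Irf5* were lower in value without GEF-H1. *Irf4* was at 129 against 170.0 FPKM, a log2 difference of -0.40 ± 0.38, and *Irf5* at 271 against 385 FPKM, a log2 difference of -0.51 ± 0.48. Both intervals exclude 0 narrowly, although the bounds of the single values overlap for each gene. This made 2 of 8 members by the interval rule, a share near the 26.0% of all genes that the rule called. No member was past 2-fold (4.06% of all genes) or past 1.5-fold (14.8%). *Irf8* was at 103 against 96.8 FPKM, 0.09 ± 0.42, and *Irf7* at 39.9 against 33.0 FPKM, 0.27 ± 0.43.

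**Figure D3:**
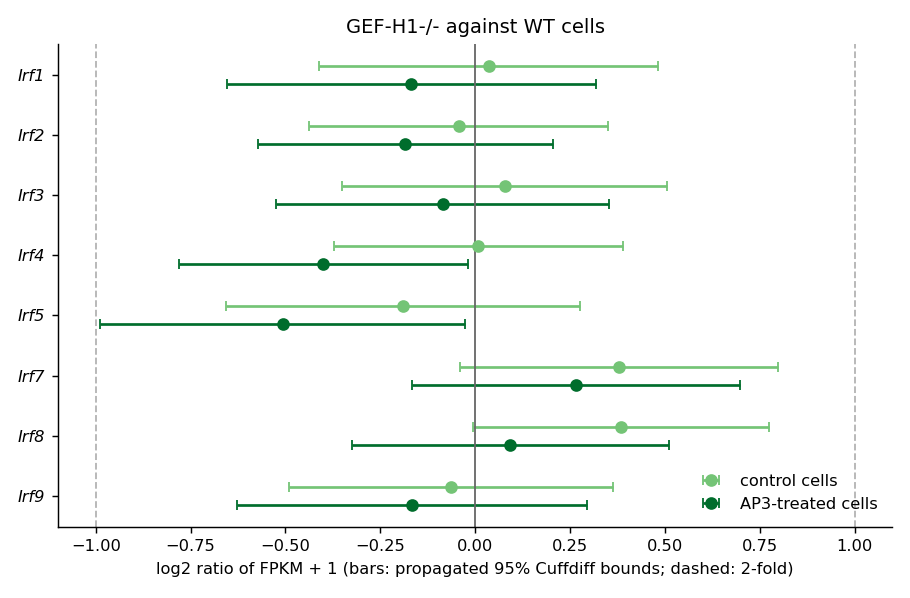
log2 ratio of FPKM + 1 (horizontal axis) of GEF-H1-/- against WT cells for the 8 IRF genes, in control (light green) and AP3-treated (dark green) cells. Bars are the propagated 95% Cuffdiff bounds and dashed lines mark 2-fold. The treated values of *Irf4* (-0.40) and *Irf5* (-0.51) are those whose bars stay clear of 0.

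Summed over the 8 genes, IRF mRNA came to 580 FPKM in control and 827 FPKM in treated WT cells and to 561 and 669 FPKM in GEF-H1-/- cells. *Irf5* held 49.8% of the sum in control and 46.6% in treated WT cells, and 45.1% and 40.5% in GEF-H1-/- cells. *Irf4* held between 17.2% and 20.6% in the 4 groups. The share of *Irf8* was 3.24% and 11.7% in WT and 4.43% and 15.4% in GEF-H1-/- cells, so that it grew while the shares of *Irf1*, *Irf2*, *Irf3*, *Irf7* and *Irf9* were smaller in treated than in control cells of each genotype. Between the lineage factors, the ratio of *Irf4* to *Irf8* FPKM went from 5.30 to 1.76 in WT cells and, without GEF-H1, from 4.03 to 1.24.

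**Figure D4:**
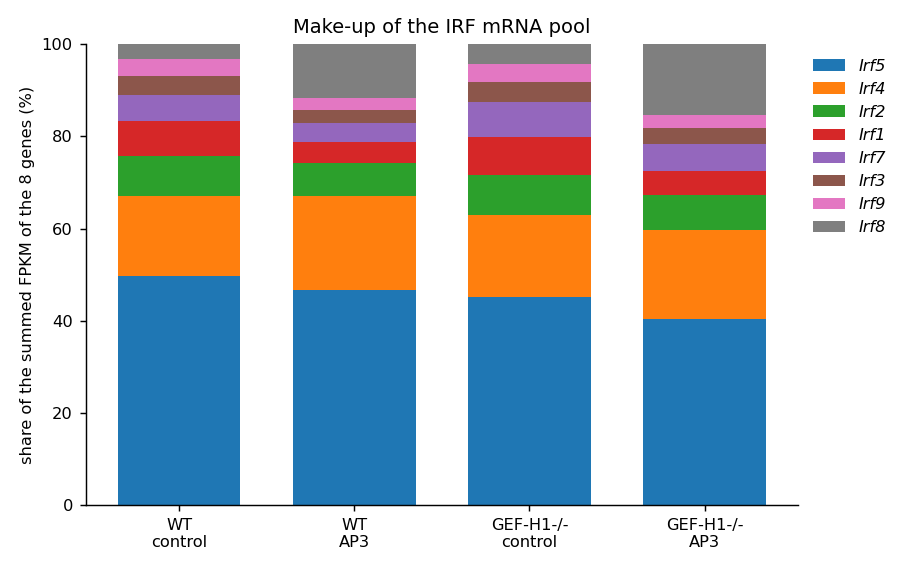
Share of each IRF gene in the summed FPKM of the 8 genes (vertical axis, %) in each group. *Irf5* is the largest segment in every bar, from 40.5% to 49.8%, and *Irf8*, at the top, is 3.24% and 4.43% in the control bars and 11.7% and 15.4% in the AP3 bars.

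The genes around the IRFs were followed by role. Ligand mRNA was low. Of 8 interferon genes, 6 were listed at 0 in every group, *Ifnb1*, the early type I interferon and a target of IRF3, was at most at 0.09 FPKM, and *Ifng*, the type II interferon, was between 1.81 and 2.17 FPKM. The 7 receptor and Janus kinase genes were all expressed, none was past 2-fold in any comparison, and their median log2 change with AP3 was 0.28 in WT and 0.03 in GEF-H1-/- cells. *Jak2* was the highest of them, at 201 FPKM in control and 259 FPKM in treated WT cells.

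Of 18 tested sensors, adaptors and kinases that lead to IRF3, IRF5 and IRF7, 2 rose in WT cells and none in GEF-H1-/- cells, beside 4.94% and 1.08% of all genes past 2-fold, and none fell. *Tlr4*, the lipopolysaccharide receptor, was at 21.6 and 57.3 FPKM in control and treated WT cells and at 23.7 and 37.9 FPKM in GEF-H1-/- cells, log2 changes of 1.37 ± 0.43 and 0.65 ± 0.45 with a difference of 0.71 ± 0.63. *Ticam1*, which encodes the TLR3 and TLR4 adaptor TRIF, was at 13.2 and 29.9 FPKM in WT and at 13.2 and 22.9 FPKM in GEF-H1-/- cells, log2 changes of 1.12 ± 0.37 and 0.75 ± 0.39 whose difference of 0.37 ± 0.54 includes 0. *Tbk1*, the kinase of IRF3, was at 23.5 and 29.3 FPKM and at 22.3 and 24.6 FPKM, and *Myd88* had log2 values of -0.01 and -0.18. The list as a whole was centered near 0, with medians of -0.06 in WT and -0.01 in GEF-H1-/- cells. By the interval rule 4 of 18 were higher and 4 lower with AP3 in WT cells, beside 30.1% of all genes called. The WT change was above the GEF-H1-/- change by this rule for *Tlr4* and *Tlr7* (0.60 ± 0.54). It was below for *Tlr9* (-0.61 ± 0.57) and *Mb21d1* (-0.68 ± 0.55), beside 8.29% of all genes called.

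Among 11 DNA-binding partners, 2 were past 2-fold with AP3 in WT cells and 1 without GEF-H1, beside 4.94% and 1.08% of all genes. *Jun* rose in both genotypes (1.79 and 1.40) and *Junb* rose in WT cells (1.39, against 0.40 without GEF-H1), while *Jund* was at 0.93 and 0.79. PU.1 (*Spi1*, in the table as *Sfpi1*) was at 279 and 389 FPKM in control and treated WT cells and at 286 and 312 FPKM in GEF-H1-/- cells. The remaining 7 genes, among them *Batf3* and *Stat2*, all had negative values in both genotypes. *Batf3*, the partner of IRF8 in type 1 DCs, was at 106 and 72.5 FPKM in WT and at 141 and 121 FPKM in GEF-H1-/- cells, the opposite direction to *Irf8*.

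Interferon-stimulated genes, which ISGF3 controls, went both ways with AP3. Of 13 tested, *Cxcl10*, a chemokine gene also induced by NF-κB, rose in WT cells from 1.51 to 4.19 FPKM (log2 1.05) and *Usp18*, which encodes a deubiquitinase-family inhibitor of interferon receptor signaling, fell from 21.3 to 7.05 FPKM (-1.47), which is 2 of 13 beside 4.94% of all genes. None was past 2-fold in GEF-H1-/- cells, where 1.08% of all genes were, and *Usp18* was there at -0.72 ± 0.39, an interval that excludes 0. The medians were -0.08 in WT and -0.15 in GEF-H1-/- cells. In control cells all 13 were lower in value in GEF-H1-/- than in WT cells, with a median of -0.31 against -0.008 over all genes, of which 47.7% were above 0, though none of the 13 was past 2-fold. By the interval rule 5 of the 13 were lower, beside 10.0% of all genes called in either direction. *Isg15* had the largest difference of the 13 (-0.69), at 15.4 in control WT and 9.17 FPKM in control GEF-H1-/- cells. *Irf9* and *Stat2*, which encode subunits of ISGF3, differed there by -0.06 ± 0.43 and -0.31 ± 0.37, intervals that include 0.

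Genes known as targets or companions of single IRFs differed from list to list in how they changed. For IRF4, 7 of 8 listed genes were tested and *Ccr7*, the receptor that guides mature DCs to lymph nodes, was past 2-fold in WT cells, at 258 and 602 FPKM (log2 1.22), against 234 and 405 FPKM in GEF-H1-/- cells (0.79). That is 1 of 7 in WT cells, beside 4.94% of all genes, and 0 of 7 in GEF-H1-/- cells, beside 1.08%. All 7 were above 0 in value with AP3 in WT cells and 6 in GEF-H1-/- cells, beside 50.1% and 47.6% of all genes. By the interval rule 4 were higher in WT and 1 in GEF-H1-/- cells, beside 30.1% and 8.97% of all genes called. The IRF4 list had medians of 0.50 and 0.20, and *Retnla*, a gene of IL-4 responses, was at 510.0 and 537 FPKM in WT and at 2397 and 2378 FPKM in GEF-H1-/- cells, a control difference of 2.23 beside a log2 difference of 0.01 ± 0.38 for *Irf4* itself. For IRF5, *Il6* rose in both genotypes (2.67 and 1.59, a difference of 1.08 ± 0.71), and *Tnf* was at 0.47 in each. *Il6* was 1 of 3 tested genes of this list, beside 4.94% and 1.08% of all genes past 2-fold. By the interval rule all 3 were higher with AP3 in each genotype, beside 30.1% and 8.97% of all genes called.

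For IRF8, 6 of 7 listed genes were tested, and none rose past 2-fold in either genotype. Of all 11397 genes, 417 rose in WT and 92 in GEF-H1-/- cells, so a count of 0 among 6 is near the background. *Il12b*, the IL-12 subunit gene that IRF8 activates, was at 0.93 and 1.69 FPKM in WT and at 1.33 and 2.65 FPKM in GEF-H1-/- cells. *Cybb*, the NADPH oxidase subunit, was at 73.6 and 82.1 FPKM and at 51.4 and 59.6 FPKM, and *Klf4*, a monocyte factor, fell in WT cells from 27.5 to 10.2 FPKM (-1.35, against -0.76 in GEF-H1-/- cells). *Slc11a1* was past 2-fold between the control groups, at 5.93 in WT and 16.7 FPKM in GEF-H1-/- cells (1.35). The IRF8 list had medians of 0.32 in WT and 0.17 in GEF-H1-/- cells, far below the changes of *Irf8* itself.

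For IRF1, 6 of 7 listed genes were tested. Apart from *Cxcl10* in WT cells, none was past 2-fold with AP3, and the medians were -0.29 in WT and -0.22 in GEF-H1-/- cells. This was 1 of 6 in WT and 0 of 6 in GEF-H1-/- cells, beside 4.94% and 1.08% of all genes. *Gbp2*, an interferon-inducible GTPase gene, was at 58.9 and 48.3 FPKM in WT and at 29.3 and 22.7 FPKM in GEF-H1-/- cells, so that treated cells differed past 2-fold (-1.06) and control cells by -0.98, beside control differences of 0.04 ± 0.45 for *Irf1*. The IRF2 targets *Gsdmd*, which encodes the pore-forming gasdermin D, and *Casp4* had log2 values between -0.23 and 0.22 in both genotypes.

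**Figure D5:**
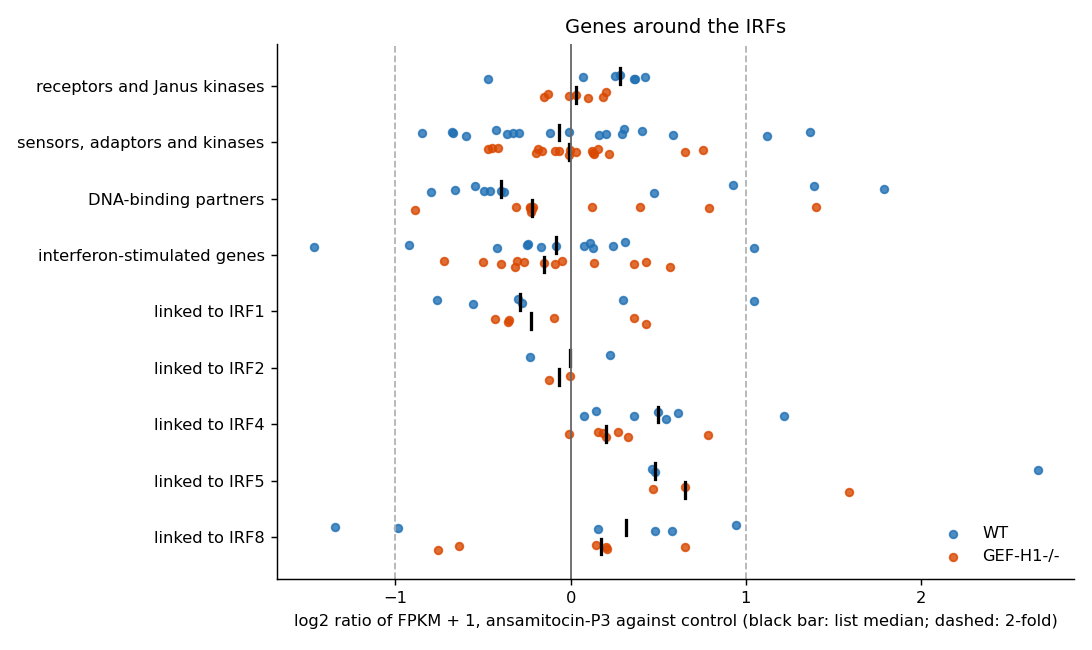
log2 ratio of FPKM + 1 of AP3-treated against control cells (horizontal axis) for the tested genes of each list around the IRFs except the ligands, in WT (blue) and GEF-H1-/- (orange) DCs, with 1 point per gene. Black bars are list medians and dashed lines mark 2-fold. List medians run from -0.40 (DNA-binding partners) to 0.50 (linked to IRF4) in WT and from -0.22 to 0.65 (linked to IRF5) in GEF-H1-/- cells, and the outermost point is *Il6* at 2.67.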

How the data were processed

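RNA-seq values of 8 IRF genes were read from 1 table that covers 8 libraries of BMDCs in 4 groups. The authors computed the deposited FPKM, its 95% bounds and its status with Cuffdiff (version 1.05 per the labels, build mm10) and combined the 2 libraries of a group into 1 value. The aligner and annotation of this table are not given in the sources used here. Columns were matched to groups by name, and 0 sample columns remained unused. Status words other than OK in the deposited table (107 genes) led to exclusion, and a filter of 1 FPKM in at least 1 group left 11397 genes.

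Changes are log2 ratios of FPKM + 1, which understate those of low genes. The distance of the bounds from the middle of an interval, divided by 1.96, served as the error of a value and was propagated by the delta method. Because values are pooled, limma was not run and no p-value was computed. The depth of the libraries is unknown, and the intervals cover the error that Cuffdiff models. The 10 gene lists, the 8 marker lists, the members and the naming rule (the members, Arhgef2, list genes past 2-fold or of direct role, and the 5 genes most like a member past 2-fold) were chosen with earlier results of these data known, and some genes that the rule names are not reported here. Older symbols were matched through RefSeq. Promoters came from RefSeq (GRCm38.p6, all 8 genes) and overlaps from GENCODE release M21. Python 3.11.15, pandas 2.3.3 and numpy 2.4.6 were used, and the computation was tested on simulated data. Alternatives were pseudocounts of 0.1 and 5 FPKM, no filter or 5 FPKM, rescaling, and calls by interval or at 1.5-fold.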

Additional observations from a re-analysis of the deposited data

How the results depend on the processing

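The 200 recomputed values of single genes (8 genes, 5 comparisons and 5 settings of pseudocount, filter and scaling) kept their sign and moved by at most 0.21. The largest move was that of *Irf8* in WT cells, to a log2 change of 2.10 with a pseudocount of 5 FPKM. Of 35 recomputed counts of members called, 32 were equal to the 2-fold count. The 3 others were 2 members (*Irf4* and *Irf8*) for AP3 in WT cells by the interval rule and at 1.5-fold, and 2 members (*Irf4* and *Irf5*) between genotypes in treated cells by the interval rule. Over all genes, the 2-fold count of 563 for AP3 in WT cells was 3431 by the interval rule, so a call by interval is common. With a pseudocount of 0.1 FPKM the 5 counts over all genes (563, 123, 214, 463 and 216) were 956, 212, 372, 801 and 387, and with 5 FPKM they were 318, 77, 101, 206 and 123, since genes of low level are weighted differently. Leaving out libraries was not run. No paired analysis was possible because the columns hold 1 pooled value per group and carry no replicate numbers. Depth is unknown, so no counting limit can be given.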

Other observations

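*Irf2bp1*, *Irf2bp2* and *Irf2bpl*, which encode corepressor proteins related by binding to IRF2, were looked at after their values were seen. *Irf2bpl* was in WT cells at 3.89 FPKM (2.70 to 4.65) without and 8.24 (5.56 to 9.79) with AP3, a log2 change of 0.92 ± 0.44, and at 4.64 (3.20 to 5.81) and 5.97 (4.10 to 7.36) in GEF-H1-/- cells, 0.30 ± 0.47. *Irf2bp2* had log2 changes of -0.49 ± 0.42 and -0.35 ± 0.42, and *Irf2bp1* of -0.14 ± 0.50 and -0.34 ± 0.50.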
